A study of Mus musculus with 8 samples.

Results

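The genes described here are 8 genes known from peripheral nerve and sensory ganglia, *Prx*, *Pmp22*, *Ngfr*, *Scn10a*, *Scn9a*, *Avil*, *Pou4f1* and *Foxd3*, followed in the brains of newborn mice after maternal Cd exposure. They were chosen by name, by matching their symbols to the Ensembl identifiers of the B genome count table, and are 8 of the 49585 genes listed there. Each library holds the poly(A) RNA from 1 whole brain, taken on postnatal day 1 from a B × C female (C57BL/6J mother, CAST/EiJ father). The dams drank water with 0 ppm or 50 ppm CdCl2 before mating and through gestation, and 4 pups per dose, each from a separate litter, were sequenced. All 8 pups shared the cross, the sex and the age, and differed by label only in the dose given to the dam. Values are CPM, the reads on a gene per 1000000 reads of its library after scaling of the library sizes.

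Peripheral nerve is built by Schwann cells, the glia that wrap axons, and by the axons of sensory neurons whose cell bodies lie in the cranial and dorsal root ganglia. Schwann cells, sensory neurons of the trunk and melanocytes all descend from the neural crest, a cell population that leaves the dorsal neural tube. Several of these genes also have known sites of expression within the brain: *Pou4f1* in the medial habenula and some brainstem nuclei, and *Ngfr* in cholinergic neurons of the basal forebrain and in developing brainstem neurons. In whole tissue, a lower level from fewer cells of a type and a lower level from less RNA per cell cannot be told apart.

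None of the 8 genes passed the adjusted threshold between 50 ppm and 0 ppm. All 8 passed the filter on genes without reads and were tested among 23113 genes. edgeR's quasi-likelihood test called 0 of 8 at an adjusted p under 0.05, against 0.0173% of all genes tested, and DESeq2 also called 0. At an unadjusted p under 0.05, 2 of the 8 genes were higher at 50 ppm, *Ngfr* and *Foxd3*, against 2.31% of all genes tested. None was lower, against 1.44% of all genes tested. The fitted log2 fold change was above 0 in 7 genes and below 0 in 1, with a median of 0.33 beside -0.0033 over all genes tested. Since these genes were picked with earlier results of the same brains known, the counts describe the list and do not test it.

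The libraries held 22916434 to 30708087 reads on genes, so that 3 reads made 0.098 to 0.132 CPM. Before any comparison, 3 libraries stood apart in markers of the hindbrain and cord. The summed CPM of a list of 10 brainstem and spinal cord genes was 24.6 and 39.7 in 0 ppm replicates 1 and 2, and 72.6 to 148 in the other 6 libraries. The summed CPM of 5 posterior *Hox* genes was 0 and 0.112 in the same pair of control brains, 6.11 and 15.7 in the other control brains, 74.1 in 50 ppm replicate 1 and 15.4 to 24.1 in the other exposed brains. The part of this difference in the results below was not tested. Values without 0 ppm replicates 1 and 2 are given for the genes and gene lists where they differ most from those over all 8 brains, and leaving out that pair was chosen after seeing the data. In that fit 534 of all 23841 genes tested were higher and 486 lower at an unadjusted edgeR p under 0.05. The list counts given below without that pair are to be read beside these.

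To show the genomic setting of the genes with an unadjusted p under 0.05, the sequence just upstream of each is given from the RefSeq promoter table (GRCm38.p6), 5′ to 3′ along the gene, without transcribed bases. *Ngfr* lies on the minus strand at chr11:95568818-95587735, and the 213 bases at chr11:95587736-95587948 hold 14 CG pairs and 70.9% G or C. *Foxd3* lies on the plus strand at chr4:99656299-99658622 as a single exon, and the 250 bases at chr4:99656049-99656298 hold 21 CG pairs and 65.6% G or C. Capitals mark the motif matches described next.
Ngfr: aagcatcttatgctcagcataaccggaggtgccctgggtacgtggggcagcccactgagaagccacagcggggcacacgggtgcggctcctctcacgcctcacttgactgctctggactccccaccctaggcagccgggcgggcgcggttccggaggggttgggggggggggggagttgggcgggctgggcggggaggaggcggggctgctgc
Foxd3: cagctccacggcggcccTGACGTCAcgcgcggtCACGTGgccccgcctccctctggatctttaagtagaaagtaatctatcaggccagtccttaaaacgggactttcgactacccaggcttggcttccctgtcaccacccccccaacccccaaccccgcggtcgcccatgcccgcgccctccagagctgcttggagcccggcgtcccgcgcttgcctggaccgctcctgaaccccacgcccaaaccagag

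Windows of 300 bases around the annotated starts were found for all 8 genes, 11 windows in all, among 32851 windows of the table. Each motif was searched on both strands. The metal response element core, searched as TGCACNC or TGCGCNC, was absent from the *Ngfr* and *Foxd3* windows and present in the *Pou4f1* window and in 2 of the 4 *Pmp22* windows, beside 25.7% of all windows. The retinoic acid receptor core AGGTCA was in none of the 11 windows, beside 16.3% of all windows. The 2 capital runs in the *Foxd3* sequence are the cyclic AMP response element TGACGTCA, held by 1.79% of all windows, and the E-box CACGTG, held by 7.15%. Both were added to the search after the sequence had been read, and both were absent from the *Ngfr* window. These are letter matches only.

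The glial genes *Prx* and *Pmp22* showed no dose difference beyond the spread of the replicates. *Prx* (GRCm38 chr7:27499324-27520214, plus strand) encodes periaxin, a scaffold protein of myelinating Schwann cells. Its level was 5.19, 5.69, 5.71 and 5.73 CPM in the 0 ppm brains and 6.63, 5.72, 5.39 and 4.54 CPM in the 50 ppm brains. The exposed brains held both the highest and the lowest value, and the control brains lay between them. Means were 5.58 ± 0.262 CPM (SD, n = 4) and 5.57 ± 0.863 CPM (SD, n = 4). The log2 fold change was 0.00 (SE 0.15, 95% CI -0.31 to 0.31, edgeR adjusted p = 0.999).

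*Pmp22* (chr11:63128982-63159547, plus strand) encodes a membrane protein of compact peripheral myelin that is also made outside nerve. It was at 17.2, 17.7, 19.7 and 14.4 CPM at 0 ppm and at 17.0, 16.4, 16.7 and 17.2 CPM at 50 ppm. The exposed brains fell inside the range of the control brains and were closer to one another. The log2 fold change was -0.03 (SE 0.11, 95% CI -0.26 to 0.19, edgeR adjusted p = 0.999), the narrowest interval among the 8 genes.

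**Figure D1:**
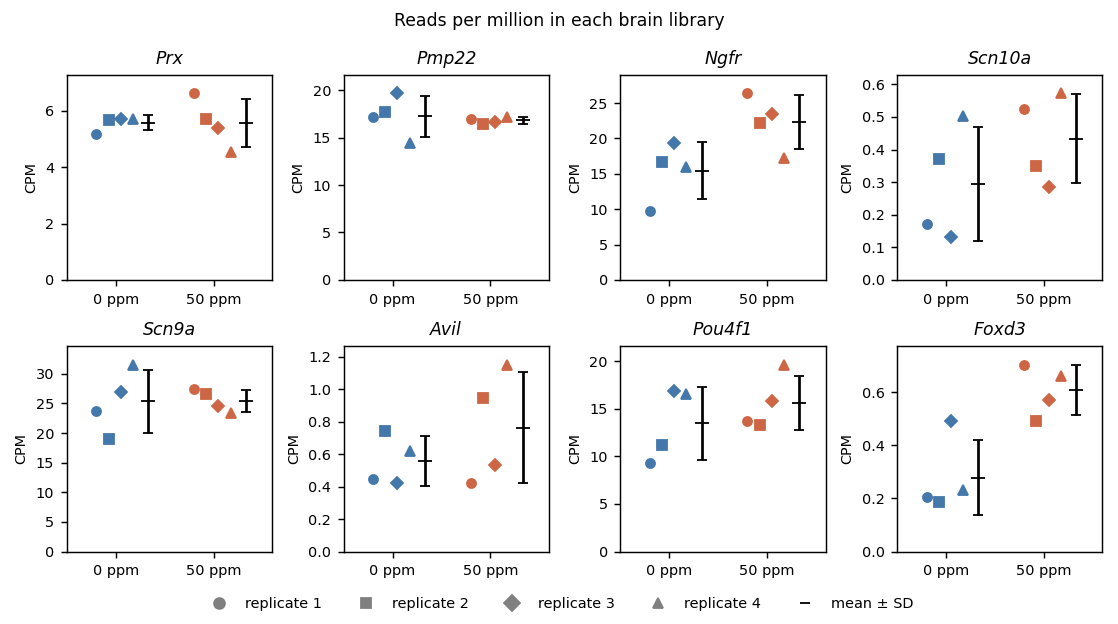
Each panel plots the CPM of 1 gene (vertical axis, from 0) in the 4 brains at 0 ppm (blue) and the 4 at 50 ppm (orange), with a marker shape for each replicate and the mean ± SD in black. The *Foxd3* points of the doses do not overlap, by 0.490 against 0.492 CPM, and those of the other 7 genes do.

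*Ngfr*, which encodes the p75 neurotrophin receptor of Schwann cells and several neuron groups, had the smallest unadjusted p of the 8 genes. Its reads numbered 286, 446, 591 and 412 at 0 ppm, which is 9.76, 16.6, 19.3 and 16.0 CPM. At 50 ppm they numbered 752, 632, 658 and 393, which is 26.4, 22.2, 23.5 and 17.3 CPM. Of the exposed brains, 3 lay above every control brain, and 50 ppm replicate 4 lay between control replicates 2 and 3. Means were 15.4 ± 4.03 CPM at 0 ppm and 22.3 ± 3.77 CPM at 50 ppm (SD, n = 4 each). The fitted fold was 1.45, a log2 fold change of 0.54 (SE 0.16, 95% CI 0.19 to 0.88), with an unadjusted edgeR p of 0.00414 and an adjusted p of 0.920.

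The *Ngfr* difference was also computed from the alignment to the C genome, the only one of the 8 genes whose C identifier is paired with a name here. There the log2 fold change was 0.55 with an unadjusted edgeR p of 0.00538 and an adjusted p of 0.997 over 19847 genes. The reads are the same ones aligned to another reference, so this is no second measurement. The lowest *Ngfr* level and the lowest sum of brainstem and spinal cord markers were in the same library, 0 ppm replicate 1, and the highest of both in 50 ppm replicate 1. Between these extremes the orders matched in part. In 0 ppm replicates 2, 4 and 3 and 50 ppm replicate 2, sums of 39.7, 79.3, 82.9 and 100 went with 16.6, 16.0, 19.3 and 22.2 CPM. The lowest exposed sum, 72.6 in 50 ppm replicate 3, went with 23.5 CPM of *Ngfr*, and a sum of 89 in 50 ppm replicate 4 with 17.3 CPM. Without 0 ppm replicates 1 and 2 the log2 fold change of *Ngfr* was 0.34, with an unadjusted edgeR p of 0.0290 and an adjusted p of 0.998.

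*Ngfr* lies 694 kb from *Hoxb8* on chromosome 11, and *Hoxb8* passed the adjusted threshold with a log2 fold change of 6.69. Between these genes are 36 listed genes, of which 19 were tested. In edgeR, 0 of these 19 had an unadjusted p under 0.05, beside 866 of all 23113 genes tested, so 0 were called. At that share a count of 0 among 19 genes says little about this stretch. None of the 19 was a *Hoxb* gene, and their median log2 fold change was 0.03.

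**Figure D2:**
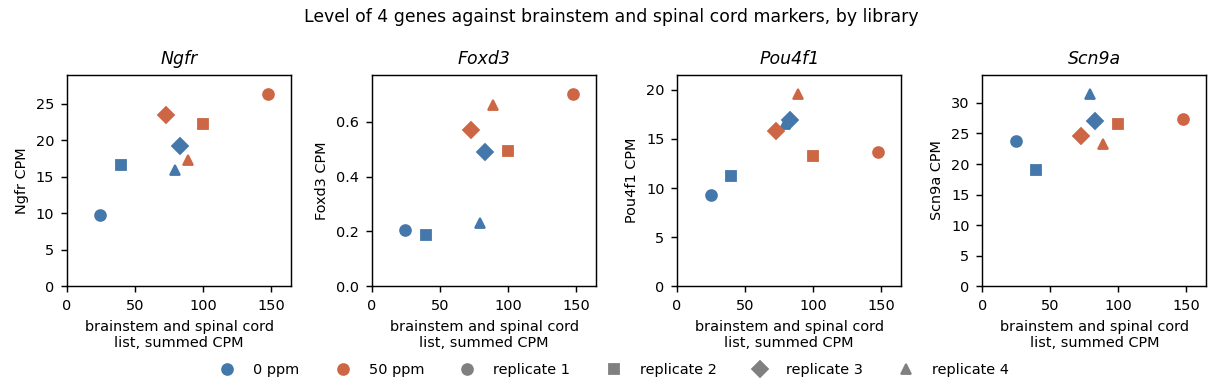
The CPM of *Ngfr*, *Foxd3*, *Pou4f1* and *Scn9a* (vertical axes) is plotted against the summed CPM of 10 brainstem and spinal cord genes (horizontal axis) in the 8 brains, 0 ppm in blue and 50 ppm in orange, with a marker shape for each replicate. Control replicates 1 and 2, at 24.6 and 39.7 on the horizontal axis, are the leftmost points in each panel and hold the lowest *Pou4f1* values.

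Levels of the other neurotrophin genes differed little between doses. Of the 14 genes of that list, 13 were tested, edgeR called 0, and 0 had an unadjusted p under 0.05 in either direction. Their median log2 fold change was -0.03, and 4 of 13 were above 0. *Ntrk2* and *Ntrk3*, the receptors of brain-derived neurotrophic factor and neurotrophin-3, had log2 fold changes of 0.11 (SE 0.07) and 0.09 (SE 0.08). A gene listed at 0 in this table cannot always be read as absent. Of 402 protein-coding genes whose whole span lies inside another gene on the same strand, 397 (98.8%) were listed at 0, beside 15.0% of those inside no other gene and 20.9% of those inside a gene of the opposite strand only. None of the 8 genes described here lies inside another gene, and same-strand neighbours covered 3.83% of the *Foxd3* span, 0.861% of the *Scn9a* span and none of the other 6.

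The sodium channel genes *Scn10a* and *Scn9a* differed widely in level, and neither differed between doses beyond its spread. *Scn10a* (chr9:119608456-119719322, minus strand) encodes Nav1.8, a channel typical of nociceptors. It had 5, 10, 4 and 13 reads at 0 ppm and 15, 10, 8 and 13 reads at 50 ppm, or 0.171, 0.372, 0.131 and 0.503 CPM against 0.526, 0.351, 0.285 and 0.573 CPM. The doses overlapped, and the spread over control brains was 59.5% of their mean, where counting error alone at a mean of 8 reads gives 35.4%. The log2 fold change was 0.57 (SE 0.46, 95% CI -0.39 to 1.53, edgeR adjusted p = 0.999). The interval holds 0 as well as values above the fitted one.

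*Scn9a* (chr2:66480080-66634962, minus strand) encodes Nav1.7, found in sensory and sympathetic neurons and in parts of the brain. It had 511 to 827 reads in a library. The control brains gave 23.8, 19.0, 27.0 and 31.5 CPM and the exposed brains 27.4, 26.6, 24.6 and 23.3 CPM. All exposed values lay within the control range, and the log2 fold change was 0.01 (SE 0.12, 95% CI -0.25 to 0.27, edgeR adjusted p = 0.999). Without 0 ppm replicates 1 and 2 it was -0.20, with an edgeR adjusted p of 0.998.

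Among the other 12 sodium channel genes, all tested, edgeR called 0, and 1 had an unadjusted p under 0.05 and was higher. This was *Scn1a*, a main channel of inhibitory interneurons in the brain, with a log2 fold change of 0.22 (SE 0.10, edgeR adjusted p = 0.999). The median of the list was 0.07, and 8 of 12 were above 0. Per kilobase of exon, the embryonic and early postnatal brain channels *Scn2a* and *Scn3a* stood at 20.2 and 16.2 CPM per kb at 0 ppm, beside 1.98 for *Scn9a*, 0.178 for the nociceptor channel *Scn11a* and 0.0369 for *Scn10a*. *Scn1a* had 0.07 (SE 0.10) without 0 ppm replicates 1 and 2. Log2 fold changes of *Scn2a*, *Scn3a* and *Scn11a* were 0.08, 0.01 and 0.15.

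*Avil* (chr10:127000709-127020994, plus strand) encodes advillin, an actin-binding protein of sensory and other peripheral neurons. It had 13, 20, 13 and 16 reads at 0 ppm and 12, 27, 15 and 26 reads at 50 ppm, or 0.444, 0.744, 0.425 and 0.620 CPM against 0.421, 0.948, 0.535 and 1.15 CPM. Exposed replicates 2 and 4 were above every control brain, while exposed replicate 1 had the lowest value of all. Its log2 fold change was 0.44 (SE 0.36, 95% CI -0.31 to 1.19, edgeR adjusted p = 0.999). Genes of the opposite strand cover 46.5% of the *Avil* span (*Tsfm*), 42.8% of the *Scn9a* span and 25.9% of the *Prx* span.

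*Pou4f1* (chr14:104461676-104467999, minus strand) encodes Brn3a, a transcription factor of sensory neurons and of the medial habenula. Control brains gave 9.25, 11.2, 16.9 and 16.5 CPM and exposed brains 13.7, 13.3, 15.8 and 19.6 CPM. Control replicates 1 and 2 were the lowest of all 8 brains, and the other pair of control brains lay inside the exposed range. The log2 fold change was 0.21 (SE 0.17, 95% CI -0.15 to 0.57, edgeR adjusted p = 0.999). Without control replicates 1 and 2, whose brainstem and spinal cord sums were also lowest, it turned to -0.10, with an edgeR adjusted p of 0.998.

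Habenula markers were set beside *Pou4f1*. The summed CPM of 6 habenula genes was 178 in 0 ppm replicate 1, where *Pou4f1* was lowest, and 143 to 147 in the other control brains. The most abundant genes of the list made up most of this sum and do not stand for the rest. *Gpr151* was at its lowest of the 8 brains in 0 ppm replicate 1, at 0.717 CPM. All 6 habenula genes were tested, edgeR called 0, and 0 had an unadjusted p under 0.05. In the fit without 0 ppm replicates 1 and 2, 2 of 6 were higher at an unadjusted p under 0.05 and edgeR called 0. Over all 8 brains their median log2 fold change was -0.08, with -0.45 (SE 0.32) for *Gpr151*, a receptor of habenular neurons.

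*Foxd3*, an early transcription factor of the neural crest and of Schwann cell precursors, had the largest fitted fold of the 8 genes, on few reads. It had 6, 5, 15 and 6 reads at 0 ppm, or 0.205, 0.186, 0.490 and 0.232 CPM. At 50 ppm it had 20, 14, 16 and 15 reads, or 0.702, 0.492, 0.571 and 0.662 CPM. By CPM all exposed brains were above all control brains, the case for 1 of the 8 genes and for 1.19% of all genes tested. The margin was 0.490 against 0.492 CPM, and in raw reads the groups overlapped, since control replicate 3 had 15 reads and exposed replicate 2 had 14. With DESeq2's size factors, a scaling added after seeing the data, the same pair stood at 0.490 and 0.4905.

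The mean *Foxd3* level was 0.278 ± 0.142 CPM at 0 ppm and 0.606 ± 0.0941 CPM at 50 ppm (SD, n = 4 each). The fitted fold was 2.13, a log2 fold change of 1.09 (SE 0.38, 95% CI 0.28 to 1.90), with an unadjusted edgeR p of 0.0109 and an adjusted p of 0.999. Without 0 ppm replicates 1 and 2 the log2 fold change was 0.71 and the unadjusted edgeR p was 0.129 (adjusted p = 0.998), so that *Ngfr* alone was then under 0.05.

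**Figure D3:**
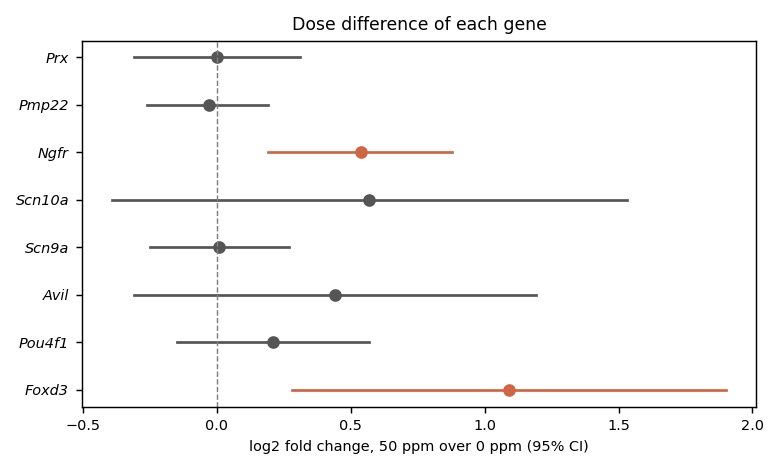
Points give the log2 fold change of each gene at 50 ppm over 0 ppm from edgeR and lines its 95% confidence interval, with an unadjusted p under 0.05 in orange and the dashed line at 0. The intervals of *Ngfr* (0.19 to 0.88) and *Foxd3* (0.28 to 1.90) lie above 0, and those of *Scn10a*, *Foxd3* and *Avil*, the genes with the fewest reads, are the widest.

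Per kilobase of exon, the control means were, in order, those of *Pmp22* (7.33 CPM per kb), *Ngfr* (4.47), *Pou4f1* (2.88), *Scn9a* (1.98), *Prx* (1.00), *Avil* (0.164), *Foxd3* (0.120) and *Scn10a* (0.0369). At 50 ppm *Foxd3*, at 0.261 CPM per kb, passed *Avil*, at 0.224, and the order was otherwise the same. Over the 8 brains the ranges of *Pmp22* and *Ngfr*, of *Ngfr* and *Pou4f1*, of *Pou4f1* and *Scn9a*, and of *Avil* and *Foxd3* overlapped. Within each brain, *Ngfr* was nonetheless above *Pou4f1*, and *Pou4f1* above *Scn9a*. The order of *Pmp22* and *Ngfr*, and that of *Avil* and *Foxd3*, changed between brains. *Prx*, at 0.814 to 1.19 CPM per kb, was separated from *Scn9a* above it and from *Avil* below it. *Scn10a* reached at most 0.072 CPM per kb, below the lowest *Foxd3* value of 0.080. Exon lengths are those of the annotation, and whether reads in introns were counted was not tested. As given above, 98.8% of the 402 genes inside a same-strand gene span were listed at 0. If intron reads were counted, exon length is not the matching divisor, and the order per kilobase need not be that of RNA level.

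The 8 genes varied in different ways across the brains. Over the 8 libraries, Pearson's r of log2 CPM between pairs of them ran from -0.60 (*Pmp22* with *Scn10a*) to 0.75 (*Ngfr* with *Foxd3*) in 28 pairs. After subtraction of the dose means the r of *Ngfr* with *Foxd3* was 0.45. These r share libraries and dose groups and are descriptions of 8 points. Of 16532 genes compared, those most like *Ngfr* were *Krt71*, *Sptssb* and *Rassf4*, with *Krt71* at an r of 0.962, and those most like *Foxd3* were *Tfpi*, *C130060K24Rik* and *Sod3*, with *Tfpi* at 0.973. The gene most like *Pou4f1* was *Gria4*, at 0.989. The closest genes to the others were *Rhot2* for *Prx* (0.969), *Zswim7* for *Pmp22* (0.942), *Tfrc* for *Scn10a* (0.952), *Trank1* for *Scn9a* (0.972) and *Ctso* for *Avil* (0.944). Each of these was picked as the highest r among 16532 genes over only 8 brains. How high such a pick reaches by chance was not tested, so these r do not show shared regulation.

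Other genes of the same cell types were compared to see whether the 8 genes stood with them. In a list of 11 Schwann cell genes 10 were tested and edgeR called 0, with 1 higher and 1 lower at an unadjusted p under 0.05 and a median log2 fold change of 0.21. *Gldn*, which encodes gliomedin at nodes of Ranvier, had a log2 fold change of -0.64 (SE 0.28, edgeR adjusted p = 0.999), and -1.01 (SE 0.28, edgeR adjusted p = 0.485) without 0 ppm replicates 1 and 2. *Cldn19*, a Schwann cell claudin, had 0.48 (SE 0.25), and *Egr2*, the transcription factor of Schwann cell myelination that is also made in brain, had 0.06 (SE 0.26). The summed CPM of the list was 69.0 to 89.3 at 0 ppm and 73.5 to 99.5 at 50 ppm. Most of each sum came from the most abundant gene of the list, so the sums say little about the other genes.

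Sensory neuron markers were mixed. In the list of 14 channels, receptors and peptides 13 were tested and edgeR called 0, with 4 higher and 0 lower at an unadjusted p under 0.05 and a median log2 fold change of 0.15. *Prph*, the intermediate filament of peripheral and brainstem motor neurons, had 146, 57, 308 and 188 reads at 0 ppm and 471, 417, 297 and 298 reads at 50 ppm. By CPM every exposed brain was above every control brain, with a log2 fold change of 1.16 (SE 0.28, edgeR adjusted p = 0.421). Such a separation held for 1 of the 13 tested genes, beside 1.19% of all genes tested. *Calcb* and *Calca*, the genes of calcitonin gene-related peptides, had log2 fold changes of 1.19 (SE 0.44) and 0.73 (SE 0.28). The fourth was *Ret*, a receptor of glial-derived factors, chosen after its value was seen, with 0.44 (SE 0.18). *Trpv1*, the capsaicin receptor of nociceptors, had 4 to 17 reads in a library and a log2 fold change of -0.48 (SE 0.47).

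The summed CPM of these 14 genes was 55.0 and 51.6 in 0 ppm replicates 1 and 2, 97.2 and 79.6 in the other control brains, and 75.4 to 95.2 in the exposed brains. The 2 controls with the lowest sums were those lowest in brainstem and spinal cord markers, and the other controls lay within or above the exposed range. Without that pair, 1 of 13 genes was higher (*Prph*) and 1 lower (*Tac1*, named after its value was seen) at an unadjusted p under 0.05, and edgeR called 0. Log2 fold changes were then 0.66 (SE 0.18) for *Prph*, 0.84 (SE 0.50) for *Calcb*, 0.31 (SE 0.28) for *Calca* and 0.08 (SE 0.12) for *Ret*.

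In the list of 12 sensory transcription factors 11 were tested and edgeR called 0, with 1 higher and 1 lower at an unadjusted p under 0.05 and a median log2 fold change of -0.24. *Prrxl1*, a homeobox gene of ganglia and of the dorsal cord and brainstem, had 4, 11, 98 and 18 reads at 0 ppm and 467, 131, 86 and 131 reads at 50 ppm. Control replicate 3 lay among the exposed brains. The log2 fold change was 2.71 (SE 0.59, edgeR adjusted p = 0.298). *Pou4f3*, the paralog of *Pou4f1* made in hair cells and some sensory neurons, had -1.01 (SE 0.35, edgeR adjusted p = 0.999). *Isl1* and *Prdm12*, factors of sensory and other neurons, had -0.24 (SE 0.16) and -0.45 (SE 0.26). Without 0 ppm replicates 1 and 2, 2 of 11 were higher and 3 lower at an unadjusted p under 0.05. Over all 23841 genes of that fit, 534 were higher and 486 lower. For the list, edgeR called 0 and the median was -0.55. *Prrxl1*, 1 of the 2 higher genes, then had 1.90 (SE 0.50). Of the 3 lower genes, *Isl1* had -0.55 (SE 0.13, edgeR adjusted p = 0.223), *Prdm12* -0.76 (SE 0.27) and *Pou4f3* -1.04 (SE 0.4).

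In the list of 12 neural crest genes, all tested, edgeR called 0, with 4 higher and 1 lower at an unadjusted p under 0.05 and a median log2 fold change of 0.21. *Ednrb*, the endothelin receptor of crest cells and of brain glia, had 0.29 (SE 0.08, edgeR adjusted p = 0.703), and every exposed brain was above every control brain by CPM. That held for 1 of the 12 genes, beside 1.19% of all genes tested. In 2 of the 12 every exposed brain was below every control brain. The share of all genes in that order was not counted, so this count has no baseline here. *Msx2*, a homeobox gene of crest and dorsal neural tube, had 0.89 (SE 0.37), and 1.48 (SE 0.43) without 0 ppm replicates 1 and 2.

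**Figure D4:**
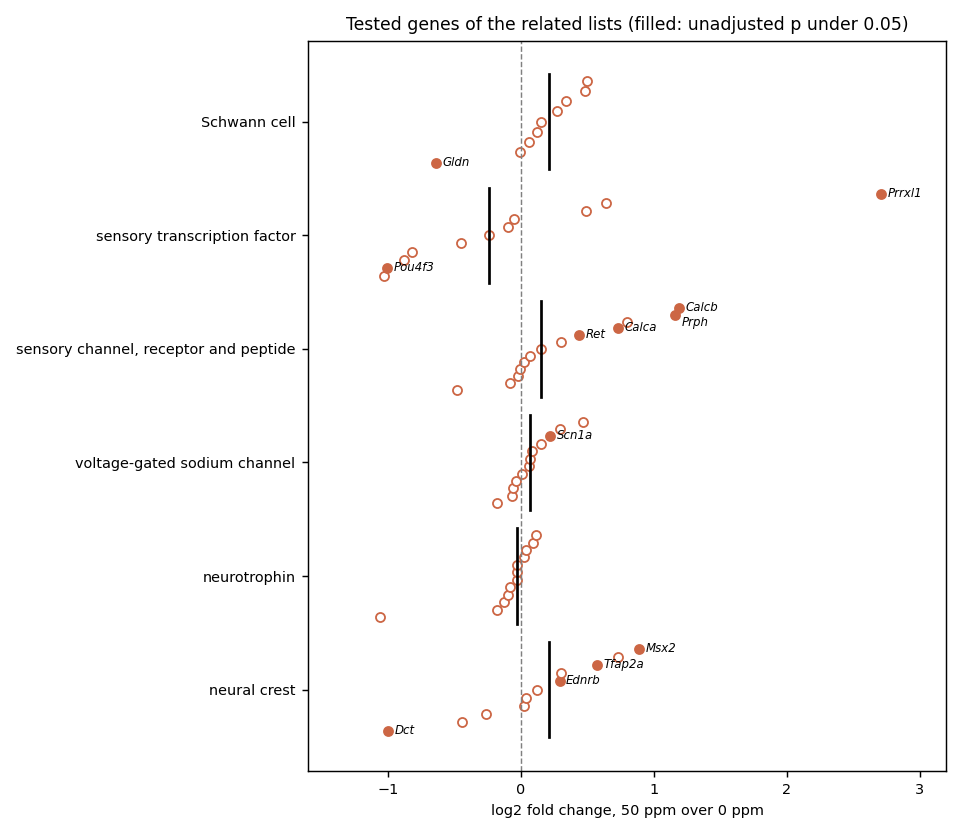
Each point is the log2 fold change (horizontal axis, 50 ppm over 0 ppm) of 1 tested gene in 6 related lists, filled and named where its unadjusted edgeR p was under 0.05. The black bar is the median over all tested genes of a list, a few of which are not drawn, and the dashed line is at 0. The medians lie between -0.24 and 0.21, and none of these genes passed the adjusted threshold.

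Markers of other tissues that a brain sample could hold were set beside these values. In the brainstem and spinal cord list 7 of 10 genes were higher at an unadjusted p under 0.05 and edgeR called 0, with a median log2 fold change of 0.93, and all 10 were above 0. The posterior *Hox* list had 5 of 5 higher, of which 3, *Hoxb6*, *Hoxb7* and *Hoxb8*, passed the adjusted threshold. In the oligodendrocyte list 6 of 10 were higher at an unadjusted p under 0.05 and 1, *Bcas1*, passed the adjusted threshold, with summed CPM of 246 to 281 at 0 ppm and 259 to 364 at 50 ppm. In the meninges and fibroblast list 1 of 8 was higher at an unadjusted p under 0.05 (*Ptgds*, 0.51) and edgeR called 0, with a median of 0.09. The sums were 537 to 631 and 670 to 826 CPM, of which *Ptgds* held 215 to 269 and 292 to 450 CPM. *Ptgds* was the only gene of this list with every exposed brain above every control brain. Without 0 ppm replicates 1 and 2 the brainstem and spinal cord list had 4 of 10 higher at an unadjusted p under 0.05, with a median of 0.47. *Hoxb6* and *Bcas1* then missed the adjusted threshold (edgeR adjusted p = 0.0604 and 0.102), and *Hoxb7* and *Hoxb8* still passed it.

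Skeletal muscle (8 genes), cartilage and bone (6 genes), blood (5 genes) and brain neuron lists (5 of 6 tested) each had 0 genes called by edgeR and 0 with an unadjusted p under 0.05. With 0 ppm replicates 1 and 2 left out, 2 brain neuron genes were higher and 1 lower at an unadjusted p under 0.05 and 1 muscle gene was lower, and edgeR again called 0. Their summed CPM overlapped between the doses, at 8.74 to 10.5 and 8.49 to 10.4 for muscle and at 20.1 to 25.9 and 16.5 to 24.5 for cartilage and bone. The part of any of these tissues in the levels of the 8 genes was not tested.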

How the data were processed

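Poly(A) RNA of 8 newborn B × C female brains, 4 per maternal dose, was sequenced from strand-specific libraries. The authors trimmed and aligned the reads with STAR to the B genome (Ensembl release 87 of GRCm38) and, separately, to the C genome, counted them per gene with htseq-count, and deposited raw read counts without normalization. Tool versions, the strand setting and the feature counted are not given in the sources used here. The count table holds no row for reads outside genes.

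A gene was kept if at least 3 of the 8 libraries had a read on it, following the study's filter. Libraries were scaled by TMM, and doses were compared with the quasi-likelihood test of edgeR 4.0.16 (R 4.3.3), with dose as the only term and Benjamini-Hochberg adjustment over 23113 genes. The standard error is the absolute log2 fold change over the square root of F. DESeq2 1.42.0 was the alternative tool. Other alternatives were DESeq2's size factors, no filter, at least 10 counts in 4 libraries, edgeR's robust fit, the C genome for *Ngfr*, and each library left out in turn. The code was tested on simulated data.

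Symbols matched 49326 of 49585 identifiers. Positions, spans and exon lengths are from GENCODE M21 (GRCm38), and promoter sequences from RefSeq. There were 15 gene lists. Besides the 8 genes, those named are the genes of each list past the adjusted threshold or otherwise those with the smallest p (up to 3), a fixed set of nerve, neurotrophin and sodium channel genes, and those whose log2 CPM (prior count 2) was most like that of each of the 8 genes, among genes with 10 reads in at least 4 libraries. The 8 genes and the lists were chosen with earlier results of these data known. Replicates are separate pups, numbered in the order of the samples. The 95% intervals come from the edgeR fit and include the spread between brains. Results of some single genes of the lists are not reported here.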

Additional observations from a re-analysis of the deposited data

Results flagged for a closer look

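In 46 groups of 4 brains, the 8 genes and the 15 list sums at each dose, 4 held a brain far from the other 3 by Dixon's criterion, which chance alone meets in about 5% of groups. Among the 0 ppm brains, replicate 1 was low for *Prx*, at 5.19 CPM against 5.69 to 5.73 CPM. For *Foxd3*, 0 ppm replicate 3 was high, at 0.490 CPM against 0.186 to 0.232 CPM, or 15 reads against 5 or 6. The habenula sum, made up mostly by the most abundant genes of that list, was 178 CPM in 0 ppm replicate 1 against 143 to 147 CPM. The posterior *Hox* sum was 74.1 CPM in 50 ppm replicate 1 against 15.4 to 24.1 CPM in the other exposed brains.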

How the results depend on the processing

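No paired analysis was possible because the labels give no replicate number shared between the doses. The number of the 8 genes called was 0 under DESeq2, DESeq2's size factors, no filter, the stricter filter (10 counts in 4 libraries), the robust fit and each library left out in turn, and 2 genes, *Ngfr* and *Foxd3*, had an unadjusted p under 0.05 under each of these. Leaving out 0 ppm replicates 1 and 2 together, chosen after seeing the data, left 1, *Ngfr*. That setting also gave 7 called genes over the whole table, beside 4 with every library, and turned *Prx* to -0.0376, *Scn9a* to -0.1997 and *Pou4f1* to -0.1017 on the log2 scale. Over all genes, DESeq2 called 18, no filter 52 and the stricter filter 2, and leaving out 1 library gave 2 to 20, with 2 without 0 ppm replicate 1 or 2 or 50 ppm replicate 4, 20 without 0 ppm replicate 3 and 8 without 50 ppm replicate 3. With 1 library left out, log2 fold changes ran from -0.0905 to 0.0839 for *Prx*, -0.1092 to 0.0364 for *Pmp22*, -0.1036 to 0.132 for *Scn9a*, 0.37 (without 0 ppm replicate 1) to 0.67 (without 0 ppm replicate 3) for *Ngfr*, 0.94 to 1.52 for *Foxd3*, 0.32 (without 0 ppm replicate 3) to 0.95 (without 0 ppm replicate 4) for *Scn10a*, 0.19 (without 50 ppm replicate 4) to 0.65 (without 50 ppm replicate 1) for *Avil* and 0.07 (without 0 ppm replicate 1) to 0.34 (without 0 ppm replicate 3) for *Pou4f1*. Those of *Scn10a*, *Avil* and *Pou4f1* moved by over 1.5 times with 1 library and had no p under 0.05. The adjusted p ran from 0.104 (no filter) to 1.000 for *Ngfr* and from 0.404 (without 0 ppm replicate 3) to 1.000 for *Foxd3*. The cause of these moves was not tested. *Scn10a*, *Avil* and *Foxd3*, at 4 to 27 reads in a library, have the widest intervals.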
